A study of Mus musculus with 2 samples.

Results

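Aminoacyl-tRNA synthetases are the enzymes that join each amino acid to its transfer RNA, the step at which the genetic code is read. Mammalian cells keep separate enzymes for the cytosol and for the mitochondrion, and the mitochondrial enzymes are made from nuclear genes and imported to charge the tRNAs that the organelle transcribes for a few subunits of its respiratory chain. In the cytosol a part of the enzymes is held in the multisynthetase complex by 3 scaffold proteins, AIMP1, AIMP2 and EEF1E1. The ventral lobe of the prostate is a secretory epithelium that exports large amounts of protein, and so draws on charged tRNA. Several cytosolic synthetase genes are known targets of ATF4, the transcription factor of the amino acid response.

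The synthetases and scaffolds were read on 2 arrays from ventral prostates of C57BL/6J males aged 3 months, 1 array of a sample with genotype U19/Eaf2 -/- and 1 of a sample with genotype U19/Eaf2 +/+. U19/Eaf2 is a binding partner of ELL transcription elongation factors, and the question was which transcripts differ in its absence. The sources used here give neither the construct behind the null allele nor the number of mice behind each RNA, and the sample titles use the plural, prostates. There was 1 array per group, so no test, SD or standard error was possible and each value describes these 2 arrays.

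Members were the genes with a single gene symbol in the platform annotation whose symbol is 1 letter followed by ars, with or without a final 1 or 2, together with Eprs, Farsa, Farsb, Aimp1, Aimp2 and Eef1e1. They numbered 38 of 18193 genes: 16 mitochondrial synthetases, whose symbols end in 2, 19 cytosolic synthetases and 3 scaffolds. Aimp2 also ends in 2 but is a scaffold of the cytosolic complex, and it was kept there. Kars and Gars are counted as cytosolic although each is known to give both a cytosolic and a mitochondrial enzyme. The aspartyl enzymes were not analysed here.

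Each gene was read by its brightest probe set. A floor was set at a signal of 166, the 50th percentile of the signals of both arrays, and a gene was measured when its higher array reached it. Of the 38 members 36 were measured, all 36 of them above the floor on both arrays, against 11671 of the 18193 genes. The log2 ratio is that of the array labelled knockout over the wild-type array. Signals of different probe sets are not on one scale, so the levels of different genes were not compared, and a sum over markers is weighted to its brightest probe sets.

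The targeted gene did not tell the arrays apart. Eaf2 read 702 on the array labelled knockout and 691 on the wild-type array, a log2 ratio of 0.02. Which part of the transcript was deleted is not stated in the sources used here, so a probe set outside it would check nothing. The genotype label was not checked by its own gene, and each direction below rests on that label. The median signal over all probe sets was 154 on the array labelled knockout and 177 on the wild-type array. The 3' over 5' ratio of the Actb control probe sets, a guide to RNA integrity, was 1.65 on the array labelled knockout and 1.25 on the wild-type array. For Gapdh it was 0.847 on the array labelled knockout and 0.714 on the wild-type array.

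Epithelial markers were split in direction, and smooth muscle and fibroblast markers were lower. Over all measured genes 53.0% were lower. Of 10 ventral prostate and luminal markers, all measured, 5 were higher and 5 lower, with a summed signal of 198099 on the array labelled knockout and 206441 on the wild-type array. All 8 smooth muscle markers were lower, with sums of 38598 on the array labelled knockout and 52545 on the wild-type array, and 6 of 7 fibroblast markers were lower, with sums of 18672 on the array labelled knockout and 21875 on the wild-type array. Adipocyte markers summed to 1940 on the array labelled knockout and to 1370 on the wild-type array, with Lep and Cidec under the floor on both and Adipoq under it on the wild-type array. Of 7 leukocyte markers, with sums of 1996 on the array labelled knockout and 2295 on the wild-type array, Cd3e, Cd79a and Itgam were under the floor on both. Of the 4 measured, Ptprc and Adgre1 were higher, and Lyz2 and Cd68 were lower. For the seminal vesicle, dorsal prostate and urothelium, 10 markers summed to 5097 on the array labelled knockout and 7214 on the wild-type array, and the seminal vesicle genes Svs2, Svs4, Svs5, Svs6 and Pate4 were under the floor on both. Most of that sum came from the urothelial genes Upk1a, with 3413 on the array labelled knockout and 4829 on the wild-type array, and Upk1b, with 755 on the array labelled knockout and 1132 on the wild-type array. The other 3 probe sets of Upk1b had log2 ratios from -2.27 to -2.03. Of the 5 measured among these 10 markers, 4 were lower and 1 was higher. The higher one was the urothelial gene Upk2, with 547 on the array labelled knockout and 488 on the wild-type array. Upk3a and Tgm4 were under the floor on the array labelled knockout only. The part of these shifts in the synthetase signals was not tested, and in such bulk RNA fewer cells of a type and less RNA per cell cannot be told apart.

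At fold thresholds the synthetases and scaffolds did not stand apart from all measured genes. None of the 36 measured members differed by 2-fold, 0 higher and 0 lower, where 0.591% of all measured genes passed 2-fold upward and 0.883% passed it downward. With shares that low, 0 of 36 members shows nothing particular to the family. At 1.5-fold, 3 members were higher, namely Hars, Nars2 and Yars2, and 1 was lower, Cars2, against 4.69% higher and 6.26% lower among all measured genes. In either direction 4 of 36 members, or 11.1%, passed 1.5-fold, and so did 11.0% of all genes. The share of members past 1.5-fold was thus that of the background. These calls depended on the processing, since only Hars passed 1.5-fold with a pseudocount of 50 or a floor at the 70th percentile, and only Nars2 without probe sets named _s_at, _x_at or _a_at.

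The direction leaned towards higher signals. Of the 36 members 23 had a log2 ratio above 0, or 63.9%, against 47.0% of all measured genes, and 13 were below 0, against 53.0% of all genes. The median log2 ratio was 0.11 over members and -0.03 over all genes. Genes with signals in the interquartile range of the members had a median of 0.01, with 50.7% higher. With the median over the measured probe sets of each gene, 20 of 36 members were higher, against 42.3% of all measured genes. By set, the median was 0.08 for the mitochondrial synthetases and 0.13 for the cytosolic synthetases, with 8 of 14 mitochondrial and 14 of 19 cytosolic members higher. The scaffolds had a median of -0.27, with 1 of 3 higher. The spread that probe sets of 1 gene show among themselves, as an SD of the log2 ratio per probe set, was 0.350 and leaves out animals, dissection and hybridisation. Beyond that SD 8 single members were higher and 4 lower, where 14.5% of all genes were higher and 17.0% lower by as much.

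**Figure D1:**
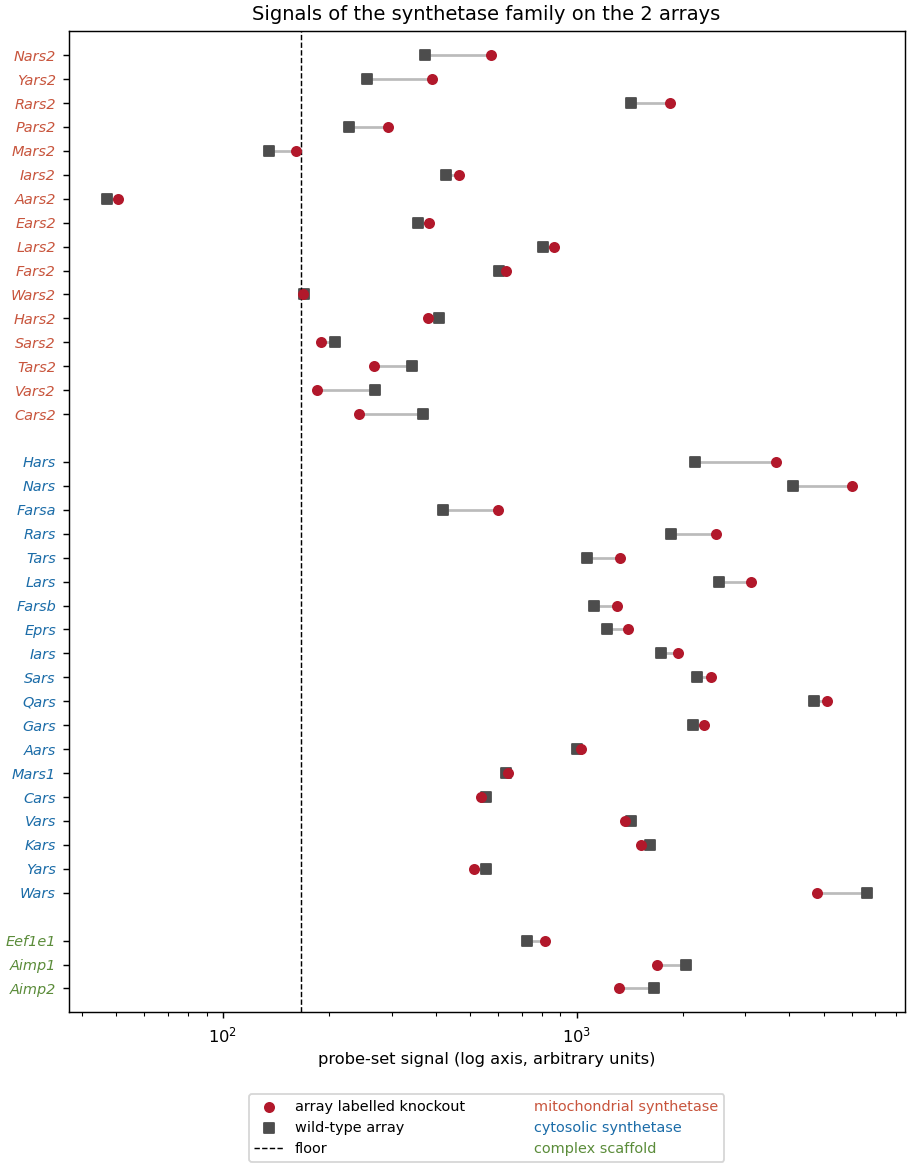
Signals of the brightest probe set of each of the 38 members on the array labelled knockout (red circles) and on the wild-type array (grey squares), on a log axis, with the floor of 166 dashed and the mitochondrial synthetases above the cytosolic synthetases and the scaffolds. Within each set genes are ordered by log2 ratio. Nars2 and Hars have their red circle farthest to the right of the square in their sets, Cars2 and Wars farthest to the left, and Aars2 and Mars2 lie under the floor on both arrays.

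The ratio of any gene depended in part on how bright it was, which bears on the set medians. The interquartile range of the signals of the mitochondrial synthetases ran between 267 and 459, and the 2028 measured genes in that range had a median log2 ratio of -0.11, with 37.2% of them higher. That of the cytosolic synthetases ran between 1102 and 2535, where 2248 genes had a median of 0.06 and 58.1% were higher. Set against genes of like signal, the mitochondrial median of 0.08 and the cytosolic median of 0.13 both lay on the higher side, but with the median over probe sets the mitochondrial median was -0.03, with 6 of 14 higher. With the trend of ratio on signal removed by loess, the medians were 0.10 for the mitochondrial synthetases and 0.05 for the cytosolic synthetases. The difference between the medians of the sets, mitochondrial minus cytosolic, was -0.04 as measured and 0.05 after loess, so that its sign depended on the scaling.

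**Figure D2:**
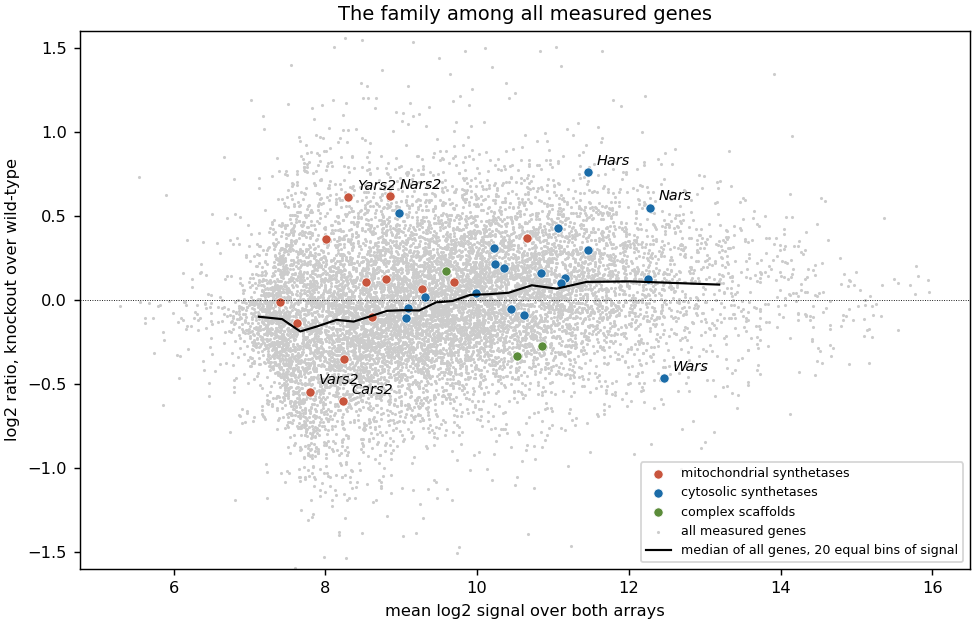
Log2 ratio of knockout over wild-type signal against mean log2 signal for all measured genes (grey; 11 genes lie outside the axis limits of 1.6), with the mitochondrial synthetases in red, the cytosolic synthetases in blue, the scaffolds in green and the median of all genes in 20 equal bins as a black line. The line lies below 0 at low and above 0 at high signals. Hars is the highest member at 0.76 and Cars2 the lowest at -0.60, both inside the cloud of all genes.

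Among the mitochondrial synthetases the enzymes for asparagine and tyrosine were the highest. Nars2, which charges mitochondrial tRNA with asparagine, read 574 on the array labelled knockout and 374 on the wild-type array, 1.54-fold higher. Yars2, the tyrosine enzyme, read 390 on the array labelled knockout and 255 on the wild-type array, 1.53-fold higher. Each had a second probe set under the floor on both arrays, so these ratios rest on 1 probe set per gene. Rars2, for arginine, read 1838 on the array labelled knockout and 1422 on the wild-type array, a log2 ratio of 0.37. Pars2, for proline, read 292 on the array labelled knockout and 227 on the wild-type array, a log2 ratio of 0.37. Both had 1 probe set on the array, and neither reached 1.5-fold.

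The enzymes for cysteine, valine and threonine were the lowest of the mitochondrial set. Cars2, the cysteine enzyme, read 243 on the array labelled knockout and 369 on the wild-type array, 0.660 times the wild-type signal. Its other measured probe set went the opposite way, at 303 on the array labelled knockout and 288 on the wild-type array, so the direction of Cars2 depended on the probe set. Vars2, for valine, read 184 on the array labelled knockout and 269 on the wild-type array, a log2 ratio of -0.55. Its other probe set was lower too, at 53.8 on the array labelled knockout and 173 on the wild-type array, with the lower value under the floor. Tars2, for threonine, read 269 on the array labelled knockout and 343 on the wild-type array, a log2 ratio of -0.35, whereas its other probe set read 301 on the array labelled knockout and 257 on the wild-type array, 0.23 on the log2 scale.

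The other measured mitochondrial synthetases lay between log2 ratios of -0.14 and 0.13. Iars2, for isoleucine, read 466 on the array labelled knockout and 427 on the wild-type array, but a dimmer probe set was lower, at 159 on the array labelled knockout, under the floor, and 273 on the wild-type array. Ears2, for glutamate, read 384 on the array labelled knockout and 356 on the wild-type array, and its other 3 probe sets were all lower, with log2 ratios from -0.25 to -0.01. Lars2, for leucine, read 864 on the array labelled knockout and 803 on the wild-type array. The leucine, isoleucine and glutamate enzymes thus had nearly equal signals on the 2 arrays in their brightest probe sets. Fars2, for phenylalanine, read 631 on the array labelled knockout and 604 on the wild-type array, and its other probe set had a ratio of 0.28 on the log2 scale. Hars2, for histidine, read 380 on the array labelled knockout and 408 on the wild-type array. Sars2, for serine, read 189 on the array labelled knockout and 208 on the wild-type array. These were differences below the probe-set SD. Wars2, for tryptophan, read 168 on the array labelled knockout and 170 on the wild-type array, at the floor. Mars2, for methionine, read 161 on the array labelled knockout and 135 on the wild-type array, and Aars2, for alanine, read 50.6 on the array labelled knockout and 46.9 on the wild-type array. Both stayed under the floor and out of the counts.

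In the cytosolic set the histidine enzyme stood highest and the tryptophan enzyme lowest. Hars, histidyl-tRNA synthetase, read 3658 on the array labelled knockout and 2158 on the wild-type array, 1.69-fold higher. Its other probe set read 1281 on the array labelled knockout and 895 on the wild-type array, a log2 ratio of 0.52, so that both were higher. Wars, tryptophanyl-tRNA synthetase, is known as the synthetase gene that interferon gamma induces. It read 4792 on the array labelled knockout and 6606 on the wild-type array, a log2 ratio of -0.46. Its other 3 probe sets read 4309, 2138 and 852 on the array labelled knockout and 5836, 3098 and 1619 on the wild-type array. All 4 Wars probe sets were lower, with log2 ratios from -0.93 to -0.44, and Wars was the only cytosolic synthetase below -0.11.

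The enzymes for asparagine, phenylalanine and arginine followed Hars. Nars, asparaginyl-tRNA synthetase, read 5999 on the array labelled knockout and 4099 on the wild-type array, 1.46-fold higher, while its other probe set read 2768 on the array labelled knockout and 2955 on the wild-type array, a log2 ratio of -0.09. The Nars probe sets thus differed in direction. Phenylalanyl-tRNA synthetase is a tetramer of alpha chains from Farsa and beta chains from Farsb. Farsa read 599 on the array labelled knockout and 418 on the wild-type array, 1.43-fold higher. Its other measured probe sets spread widely, with log2 ratios of 0.97 and, as a bound, -0.92. Farsb read 1300 on the array labelled knockout and 1121 on the wild-type array, a log2 ratio of 0.21, with 0.04 and -0.39 in its other 2 measured probe sets. For each subunit 1 of 3 measured probe sets was lower and 2 were higher. Rars, for arginine, read 2484 on the array labelled knockout and 1846 on the wild-type array in its only probe set, a log2 ratio of 0.43.

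**Figure D3:**
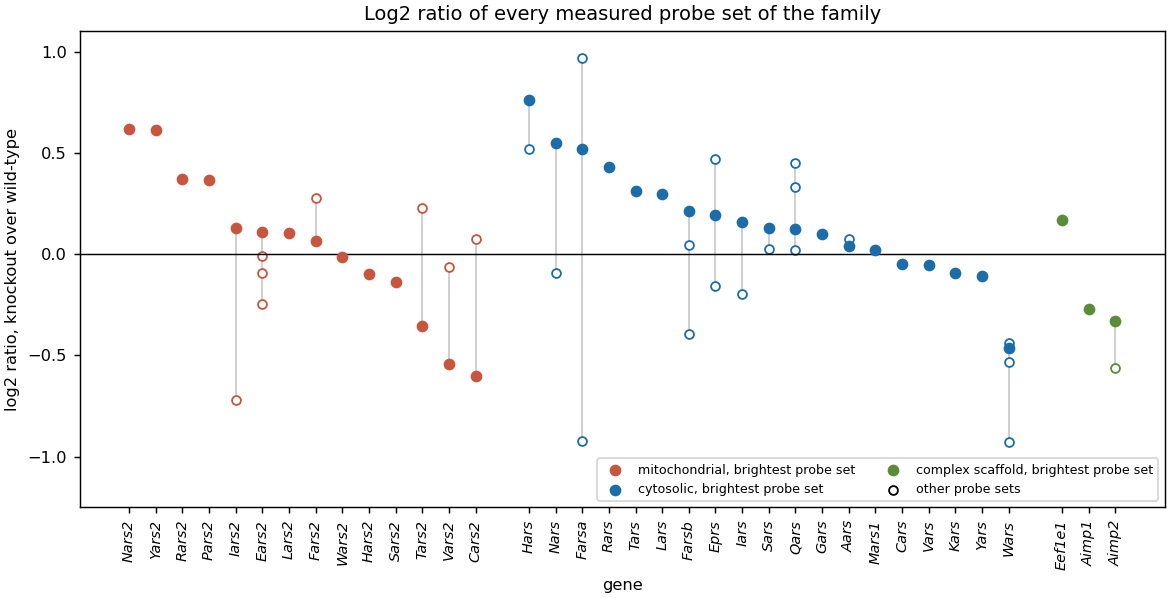
Log2 ratio of knockout over wild-type signal for each measured probe set of the 36 measured members, mitochondrial synthetases on the left, then cytosolic synthetases and scaffolds. Filled points are the brightest probe set of a gene, open points its other measured probe sets, and a grey line joins them. The 4 Wars points all lie below 0, both Hars points above 0, and the Farsa points span from -0.92 to 0.97.

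In their brightest probe sets the synthetases held in the multisynthetase complex spread less than the other cytosolic synthetases. The 7 measured were Eprs, Iars, Kars, Lars, Mars1, Qars and Rars. Their log2 ratios ran from -0.09 to 0.43, with a median of 0.16 and 6 of 7 higher. The SD over genes was 0.17 in the complex and 0.33 outside it. Other probe sets of Eprs, Iars and Qars lay beyond the range of the brightest ones. Genes with signals in the interquartile range of these 7 had a median of 0.07, with 59.1% higher. Eprs joins the glutamate and proline enzymes in 1 chain and read 1399 on the array labelled knockout and 1224 on the wild-type array, with log2 ratios of 0.47 and -0.16 in its other 2 measured probe sets. Lars, for leucine, which also acts as a leucine sensor for the growth kinase mTORC1, read 3112 on the array labelled knockout and 2535 on the wild-type array, a log2 ratio of 0.30. Qars, for glutamine, read 5113 on the array labelled knockout and 4686 on the wild-type array, and all 4 of its probe sets were higher, with log2 ratios from 0.02 to 0.45. The dimmest of them read 209 on the array labelled knockout and 119 on the wild-type array, under the floor, so its 0.33 is a bound. Qars and Wars were the members in which all of 4 measured probe sets went one way, upward in Qars and downward in Wars. Iars, for isoleucine, read 1934 on the array labelled knockout and 1732 on the wild-type array, while its other probe set was lower, at -0.20 on the log2 scale. Mars1, for methionine, read 639 on the array labelled knockout and 630 on the wild-type array. Kars, for lysine, was the only enzyme of the complex below 0, at 1518 on the array labelled knockout and 1617 on the wild-type array.

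Of the 3 scaffolds of the complex 2 were lower. Aimp1 read 1685 on the array labelled knockout and 2035 on the wild-type array, a log2 ratio of -0.27. Aimp2, which bridges the arms of the complex, read 1320 on the array labelled knockout and 1660 on the wild-type array, a log2 ratio of -0.33, and its other probe set read 1075 on the array labelled knockout and 1590 on the wild-type array, a log2 ratio of -0.56. Eef1e1, the smallest scaffold, also known as AIMP3, read 817 on the array labelled knockout and 726 on the wild-type array, a log2 ratio of 0.17. Genes with signals in the scaffolds' interquartile range had a median of 0.05. The Aimp1 and Eef1e1 values rest on 1 probe set each, and the difference between scaffolds and enzymes had no replicate check.

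Outside the complex 12 cytosolic synthetases had a median of 0.11, with 8 of 12 higher. Genes with signals in the interquartile range of these 12 had a median of 0.05, with 57.0% higher. Besides Hars, Nars, Farsa, Farsb and Wars, Tars, for threonine, read 1328 on the array labelled knockout and 1072 on the wild-type array, a log2 ratio of 0.31. Sars, for serine, read 2392 on the array labelled knockout and 2189 on the wild-type array, and Gars, for glycine, 2289 on the array labelled knockout and 2136 on the wild-type array. Aars, for alanine, read 1033 on the array labelled knockout and 1003 on the wild-type array. The serine, glycine and alanine enzymes were thus near equal on the 2 arrays. Cars, for cysteine, read 538 on the array labelled knockout and 556 on the wild-type array. Vars, for valine, which binds elongation factor 1, read 1369 on the array labelled knockout and 1421 on the wild-type array, and Yars, for tyrosine, 514 on the array labelled knockout and 553 on the wild-type array. A probe set shared by Aars and the exosome gene Exosc6 read 287 on the array labelled knockout and 201 on the wild-type array and was counted for neither gene.

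Across the family the probe sets of a gene often disagreed in direction, as they did elsewhere on the array. Of 17 members with at least 2 measured probe sets, all probe sets went one way in 8, or 47.1%, against 42.6% of 5172 genes. Those 8 were Fars2 and Vars2 of the mitochondrial set, Aars, Hars, Qars, Sars and Wars of the cytosolic set, and the scaffold Aimp2. In Cars2, Ears2, Eprs, Farsa, Farsb, Iars, Iars2, Nars and Tars2 the direction depended on the probe set.

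Synthetases are also divided by fold into class I, which charges the inner hydroxyl of the terminal tRNA ribose first, and class II, which as a rule charges the outer one. The 17 measured class I genes had a median log2 ratio of 0.10, with 10 higher, and the 15 class II genes, which include Hars, Nars and Nars2, had a median of 0.13, with 11 higher. Of genes with signals in the interquartile range of each class, 49.3% were higher for class I and 50.7% for class II. Eprs, which joins an enzyme of each class, was left out of both.

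For 12 amino acids a mitochondrial and a cytosolic gene were paired, with Ears2 set against Eprs. Phenylalanine, with 0.06 for Fars2 against 0.52 for Farsa and 0.21 for Farsb, and proline, with 0.37 for Pars2 against 0.19 for Eprs, were measured too and higher in each brightest probe set, but were left out of the pairs because of the 2 cytosolic subunits and the shared Eprs. The 2 enzymes had the same sign in 8 of 12 pairs, both higher in 5 and both lower in 3. In 3 pairs only the cytosolic enzyme was higher, and in 1 only the mitochondrial enzyme. No share for unrelated genes was set beside these counts, so they do not show that paired enzymes go together. The asparagine pair was the highest together, with log2 ratios of 0.62 for Nars2 and 0.55 for Nars, followed by the arginine pair, with 0.37 for Rars2 and 0.43 for Rars. The enzymes parted most for histidine, with -0.10 for Hars2 and 0.76 for Hars, and for tyrosine, with 0.61 for Yars2 and -0.11 for Yars. Threonine followed, with -0.35 for Tars2 and 0.31 for Tars. The other probe set of Nars had -0.09 and that of Tars2 0.23. Whether the asparagine and threonine pairs shared a sign thus depended on the probe set. Cars2, Ears2, Eprs, Iars and Iars2 also had probe sets in both directions. Over the 12 pairs the Pearson correlation was 0.23, given as a description only since all points come from the same 2 arrays.

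**Figure D4:**
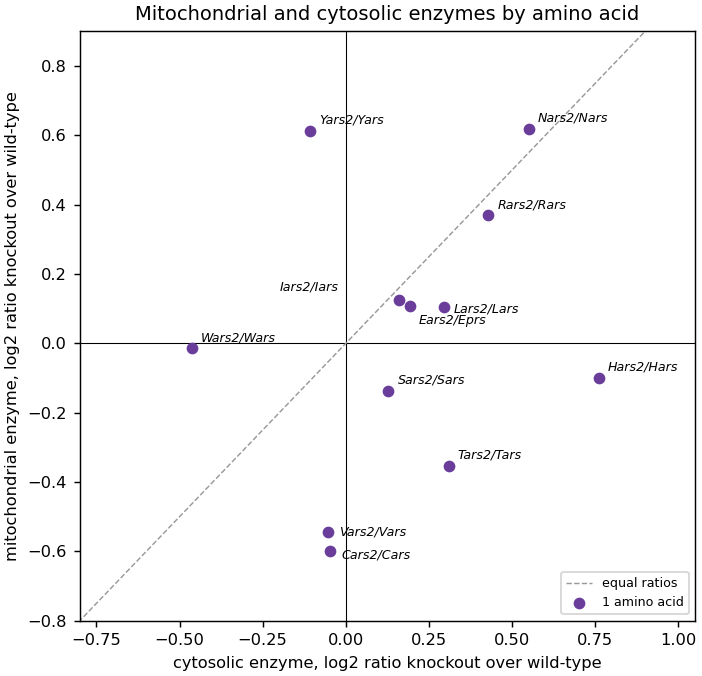
Log2 ratio of knockout over wild-type signal of the mitochondrial enzyme (vertical) against that of the cytosolic enzyme (horizontal) for the 12 amino acids paired gene to gene. The dashed line marks equal ratios. The asparagine and arginine pairs lie near the line on the higher side, and the histidine, tyrosine and threonine pairs lie far from it.

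The promoters of the cytosolic enzymes bear on the amino acid response, since ATF4 with a C/EBP partner binds the element TGATGNAA. RefSeq promoter windows of build GRCm38.p6, from 250 bases before to 50 bases after a gene's start, were matched by gene ID for 29 of 38 members, which had 31 windows. Cars, Hars, Hars2, Lars, Nars, Pars2, Rars, Vars and Wars were not matched. On either strand TGATGNAA was found in 5 of the 12 matched cytosolic synthetases, in 0 of 14 mitochondrial synthetases and in 0 of 3 scaffolds, where 3.97% of all 32851 windows hold it. The 5 are shown because they carry this element. They read 5' to 3' along the gene, with the element in capitals, which reads TTNCATCA where it lies on the opposite strand. The whole window is given for Aars, which holds 2 matches, and for Tars, and a stretch of 60 bases around the match for the others.
Aars, chr8:111033592-111033891, plus strand: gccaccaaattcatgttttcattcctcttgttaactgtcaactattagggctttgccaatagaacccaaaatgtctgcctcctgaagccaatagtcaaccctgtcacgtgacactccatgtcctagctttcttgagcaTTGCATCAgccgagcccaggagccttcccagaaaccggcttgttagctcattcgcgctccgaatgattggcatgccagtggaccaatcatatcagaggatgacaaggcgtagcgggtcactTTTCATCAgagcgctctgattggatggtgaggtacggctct
Tars, chr15:11399609-11399908, minus strand: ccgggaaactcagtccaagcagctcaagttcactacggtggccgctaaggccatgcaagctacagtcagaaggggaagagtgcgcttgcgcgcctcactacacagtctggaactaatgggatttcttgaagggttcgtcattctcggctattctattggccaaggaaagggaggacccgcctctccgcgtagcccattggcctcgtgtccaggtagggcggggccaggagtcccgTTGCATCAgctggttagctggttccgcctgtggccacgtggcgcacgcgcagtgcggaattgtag
Gars, chr6:55037945-55038004, plus strand: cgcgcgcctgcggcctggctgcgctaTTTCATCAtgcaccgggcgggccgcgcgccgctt
Iars, chr13:49682111-49682170, plus strand: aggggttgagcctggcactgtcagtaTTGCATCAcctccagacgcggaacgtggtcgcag
Yars, chr4:129189880-129189939, plus strand: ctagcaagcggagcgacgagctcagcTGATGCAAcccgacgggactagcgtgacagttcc

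Counted from the gene's start, the element began at bases -112 and 10 in Aars, -15 in Tars, -30 in Gars, 8 in Iars and 4 in Yars. The log2 ratios of these 5 genes were 0.04 for Aars, 0.31 for Tars, 0.10 for Gars, 0.16 for Iars and -0.11 for Yars, and none passed 1.5-fold. Their median was 0.10. The 0.13 of all cytosolic synthetases also covers Cars, Hars, Lars, Nars, Rars, Vars and Wars. These were not searched for the element, so the medians were not compared. The E-box CACGTG, which the Myc family of factors binds, was found in Ears2 among the mitochondrial synthetases and in Aars, Farsb, Iars and Tars among the cytosolic synthetases, against 7.15% of all windows. None of these E-boxes overlapped a TGATGNAA match, and a match of letters does not show that a factor binds.

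The wider amino acid response was split in direction. Of 31 genes listed as targets or partners of ATF4, 30 were measured. Of these 17 were higher and 13 lower, where 47.0% of all measured genes were higher. The median log2 ratio was 0.06 against -0.03 over all genes. Atf4 itself read 3095 on the array labelled knockout and 2656 on the wild-type array, a log2 ratio of 0.22, with -0.23 in its other probe set. Vldlr, a lipoprotein receptor, was the highest at 0.85, although its other 2 probe sets were lower. Cebpg, a partner of ATF4, was next at 0.42, with -0.11 and 0.16 in its other 2 measured probe sets. Ddit4, an inhibitor of mTORC1, was the lowest at -0.84, with 905 on the array labelled knockout and 1623 on the wild-type array. Chac1, a glutathione-degrading enzyme, followed at -0.33. Asns, asparagine synthetase, which makes the amino acid that Nars2 and Nars use, read 3005 on the array labelled knockout and 3538 on the wild-type array, a log2 ratio of -0.24. The sign of this list's median depended on the probe set chosen, at -0.12 with the median over probe sets.

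Accessory enzymes proofread, transamidate or formylate charged tRNA or make selenocysteine on it. Of 12 genes listed with them, 9 were lower and 3 higher, where 53.0% of all measured genes were lower. Their median log2 ratio was -0.15 against -0.03 over all genes. Since ratios depended in part on signal and no range of like signal was drawn for these genes, this is not shown to be particular to them. The 9 lower genes include Tarsl2, a threonyl-tRNA synthetase gene whose symbol fell outside the rule for members, at -0.18. Aarsd1, a relative of the alanine enzyme that removes serine from tRNA(Ala), read 297 on the array labelled knockout and 526 on the wild-type array, 0.565 times the wild-type signal. Gatb, of the mitochondrial amidotransferase that makes glutaminyl-tRNA, followed at -0.39, with 0.78 in its other probe set. Prorsd1, a relative of a proline editing domain, had 0.52 and Pstk, a kinase of seryl-tRNA(Sec), 0.36.

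Initiation, elongation, release and recycling factors of mitochondrial translation were lower in 6 of 7 measured genes, where 53.0% of all measured genes were lower. Their median was -0.25 against -0.03 over all genes. Tufm, the mitochondrial elongation factor Tu, which brings the charged tRNA to the ribosome, read 543 on the array labelled knockout and 821 on the wild-type array, a log2 ratio of -0.59, with -0.11 in its other probe set. Mrrf, the ribosome recycling factor, had -0.42. The initiation factor Mtif2 had 0.28, and the release factor Mtrf1l -0.06. The mitochondrial synthetases had a median of 0.08, and that difference between the lists had no replicate check. Ratios depended in part on signal, and no range of like signal was drawn for these factors.

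Cytosolic elongation factors gave 2 higher and 2 lower genes. Eef1a1 had a log2 ratio of 0.12 and Eef1d 0.08, with -0.56 and 0.13 in the other 2 measured probe sets of Eef1d. Eef2 had -0.23 and Eef1b2 -0.24. Of 29 genes that transcribe and mature tRNA, 12 were higher and 17 lower, where 47.0% of all measured genes were higher. Their median was -0.04 against -0.03 over all genes. Polr3b, the second-largest subunit of RNA polymerase III, read 301 on the array labelled knockout and 623 on the wild-type array, 0.484 times the wild-type signal, while its other probe set had a log2 ratio of 0.06. Polr3k, a small subunit of that polymerase, read 3141 on the array labelled knockout and 1912 on the wild-type array, 1.64-fold higher, and all of its other 3 probe sets were higher, with log2 ratios from 0.18 to 0.86. Polr3d, another subunit, had -0.43, and Ssb, the La protein that binds new polymerase III transcripts, 0.38. The other 3 measured probe sets of Ssb ranged from -0.29 to 0.50, with 1 of them lower.

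**Figure D5:**
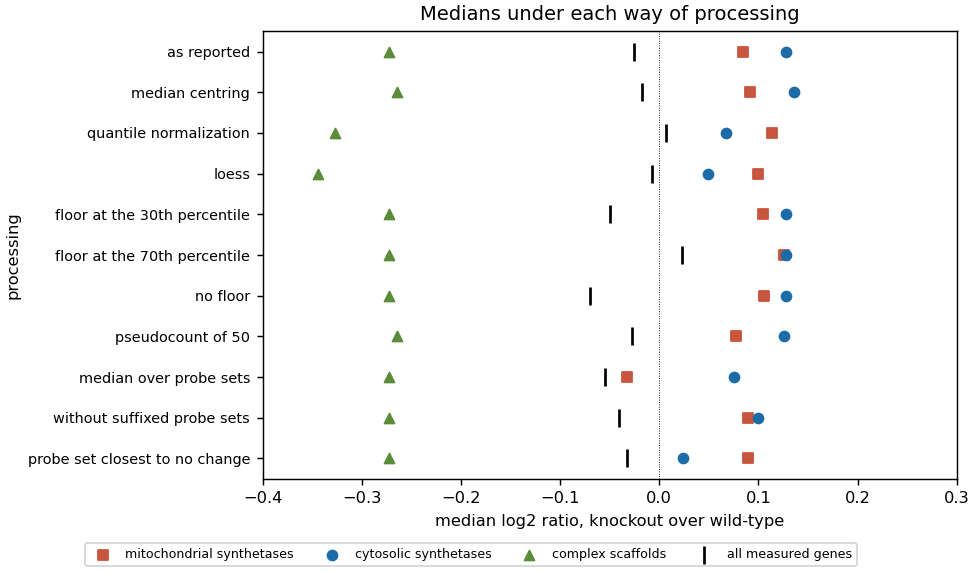
Median log2 ratio of knockout over wild-type signal of the mitochondrial synthetases (red squares), the cytosolic synthetases (blue circles), the scaffolds (green triangles) and all measured genes (black bars) as reported and under 10 other ways of processing. The scaffolds lie below -0.26 and the cytosolic synthetases above 0 in each row, while the mitochondrial synthetases fall to -0.03 with the median over probe sets.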

How the data were processed

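Per the labels, total RNA was labelled with biotin and hybridised to an Affymetrix mouse array of 45101 probe sets. The deposited values are linear probe-set signals, and the authors' software was GCOS 1.4 per the submitters' processing notes, whose settings are not stated in the sources used here. After trimming 2% of probe sets at each end, both arrays had a mean signal of 500.0, which shows a common scaling per array. Detection calls were not used here, and the floor stood in for them. The number of arrays limits the precision.

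From these signals, log2 ratios of knockout over wild-type were computed in Python 3.11.15 with numpy 2.4.6 and pandas 2.3.3, without a pseudocount, signals under the floor being raised to it. Of 45037 non-control probe sets, 34945 had 1 gene symbol, and the brightest by mean log2 signal stood for each gene. All 38 members matched a mouse gene table of GRCm38.p6 by gene ID, used for names only. Every member is named, as are up to 2 genes at each end of a pathway list. Atf4 and Asns were added for their role after their values were seen. Members and lists were chosen with earlier results of these data known, and the promoter motifs, the split by class and the ranges of like signal after the signals were seen. Promoters were also searched for a STAT site and an interferon response element, which are not reported here. The calculation of the ratios was checked on simulated arrays with known folds, which is no test of the 2 arrays. Alternatives were other scalings, floors, a pseudocount of 50, other choices of probe set, folds of 1.5 and 3, and the mean.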

Additional observations from a re-analysis of the deposited data

How the results depend on the processing

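With 1 array per group no result had a test. The value of a single member was held to have moved when it shifted by more than the spread between probe sets of the same gene. For the medians a smaller shift sufficed. No paired analysis was possible because each group holds 1 sample and no result comes from a test. The counts of members past 2-fold were 0 in each direction under all scalings, floors, probe-set choices and the 3-fold threshold; at 1.5-fold they were 3 higher and 1 lower. In either direction 1 member passed 1.5-fold with a pseudocount of 50, with a floor at the 70th percentile or without probe sets named _s_at, _x_at or _a_at, and 2 did with the probe set nearest to a ratio of 0. The median of the cytosolic synthetases stayed above 0 in 11 of 11 alternatives, from 0.02 to 0.16. It was 0.0236 where the probe set nearest to a ratio of 0 stood for each gene, and was counted as moved there. Enzymes of the complex ranged from 0.02 to 0.19 and those outside it from 0.03 to 0.16. The scaffolds ranged from -0.34 to -0.14. The mitochondrial median was -0.0322 with the median over probe sets and lay between 0.04 and 0.13 in the other alternatives. The mitochondrial minus cytosolic difference of medians was 0.0470 under quantile normalization, 0.0505 under loess and 0.0659 with the probe set nearest to 0. The ATF4 list's median was -0.12 with the median over probe sets, -0.0599 without probe sets named _s_at, _x_at or _a_at and -0.0450 with the probe set nearest to 0. Cars2 had a log2 ratio of 0.0744 in the last 2 of these settings. Of 345 values of single members under alternatives, 338 stayed within that spread. Past it were 5 counted as moved and 2 counted as reversed, both of Cars2. The opposite sign was seen in 15 values of 10 genes, namely Cars, Cars2, Ears2, Eprs, Iars, Iars2, Nars, Sars2, Tars2 and Wars2. Of these only Cars2 had passed 1.5-fold. The cause of these shifts was not tested beyond the construction of each setting.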
